A study of Mus musculus with 4 samples.

Results

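The translation initiation factor genes were the genes of the count table whose symbols start with Eif1, Eif2, Eif3, Eif4, Eif5 or Eif6, and they numbered 58 of the 13825 genes listed. Of these, 4 are listed by RefSeq as pseudogenes, 4 encode the kinases of eIF2 alpha (Eif2ak1 to Eif2ak4), and 4 encode the eIF4E-binding proteins Eif4ebp1, Eif4ebp2 and Eif4ebp3 and the eIF4E transporter Eif4enif1. The filter on low values asked for an average of 10 or more reads per library, and 56 of the 58 passed it. The other two were pseudogenes, Eif3s6-ps1 with 5, 5, 3 and 5 reads and Eif5al3-ps with 5, 4, 7 and 8 reads in WS, WD, KS and KD, the libraries named in the next paragraph.

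RNA-seq was performed on mouse tibialis anterior (TA) muscle at day 14 after surgery. Of the 4 libraries, WS and WD are the sham and the denervated muscle of WT mice, and KS and KD are the same pair from Fgf21KO mice. All mice were adult males. WT mice were C57BL/6J, Fgf21KO mice lacked Fgf21 in the whole body, and the strain background of the Fgf21KO mice is not given in the sources used here. In the denervated leg a piece of the sciatic nerve had been removed. By the labels the other leg of the animal was the control, and the study's methods describe that leg as sham-operated, so sham and denervated muscles may have come from the same mice. Each library was made from RNA of 4 pooled muscles, so every group is 1 sample, and the spread between animals was not measured. Fgf21 itself was not analysed here, so the knockout label was not checked against its target.

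Initiation of translation places the small ribosomal subunit, with its initiator methionyl-tRNA, at a start codon. eIF2 carries that tRNA as a complex with GTP, eIF2B recharges eIF2, and the eIF2 alpha kinases block the recharging when cells are stressed. eIF3 is a large scaffold on the small subunit, and eIF4F (the cap-binding protein eIF4E, the scaffold eIF4G and the RNA helicase eIF4A) recruits the mRNA through its cap. The 4E-binding proteins (4E-BPs) hold eIF4E away from eIF4G until mTOR phosphorylates them. Protein synthesis and degradation together set the mass of a muscle, which shrinks after loss of its nerve.

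Promoter sequence could be matched for 43 of the 54 genes that are not pseudogenes, in a RefSeq table (GRCm38.p6, not the GRCm39 build of the counts) of 27025 promoters that each span 300 bases around a gene's start. The ETS motif, CCGGAAG on either strand, was in 14 of the 43 (32.6%) and in 9.12% of all promoters of the table. The E-box CACGTG was in 8 (18.6%, against 7.24%), the CRE core TGACGT on either strand in 7 (16.3%, against 7.64%), and the amino acid response motif TGATGNAA on either strand in 1 (2.33%, against 4.06%). Among genes that rose after denervation the ETS motif was in 7 of 21 promoters, and among the other genes in 7 of 22. In the same order, the CRE core was in 5 and 2, the E-box in 3 and 5, and the amino acid response motif in 1 and 0. These splits were not tested. The ETS motif was in 5 of the 10 eIF3 promoters that could be matched. It was as frequent in start-site selection and subunit joining (3 of 6), eIF2B (2 of 4), the 4E-binding proteins (1 of 2) and eIF5A (1 of 2). It was rarer in the eIF2 alpha kinases (1 of 4), eIF4F and its partners (1 of 9) and eIF2 (0 of 6). The 5 eIF3 promoters are shown because the eIF3 genes were the group with the largest share of genes that rose. The promoter of Eif4a1 is shown because its gene had the largest rise. Each run is the 120 bases just upstream of the gene's start, read 5′ to 3′ on the gene's strand, and capitals mark an ETS motif in the eIF3 genes and the CRE core in Eif4a1.
Eif3c (chr7:126566367-126566486, minus strand): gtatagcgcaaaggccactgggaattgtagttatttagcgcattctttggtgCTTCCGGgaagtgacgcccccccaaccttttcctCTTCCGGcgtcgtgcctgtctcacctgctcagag
Eif3d (chr15:77970825-77970944, minus strand): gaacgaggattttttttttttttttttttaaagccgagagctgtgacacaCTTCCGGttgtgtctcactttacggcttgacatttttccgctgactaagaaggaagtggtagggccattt
Eif3g (chr9:20898591-20898710, minus strand): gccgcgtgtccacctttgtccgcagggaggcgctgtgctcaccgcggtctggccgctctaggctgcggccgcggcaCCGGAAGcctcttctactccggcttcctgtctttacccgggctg
Eif3l (chr15:79075103-79075222, plus strand): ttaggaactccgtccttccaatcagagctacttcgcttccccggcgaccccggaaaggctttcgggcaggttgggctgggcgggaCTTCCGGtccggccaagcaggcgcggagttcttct
Eif3m (chr2:105017028-105017147, minus strand): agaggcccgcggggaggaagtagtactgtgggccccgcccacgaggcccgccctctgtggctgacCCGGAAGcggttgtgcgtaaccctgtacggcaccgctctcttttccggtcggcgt
Eif4a1 (chr11:69672424-69672543, minus strand): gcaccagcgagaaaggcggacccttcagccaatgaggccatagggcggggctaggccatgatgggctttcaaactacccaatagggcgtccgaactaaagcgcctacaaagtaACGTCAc
These matches describe the letters of the windows, and binding of a factor there was not measured.

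The libraries held 25249879 to 34141303 counted reads over the 13825 genes. Genes of the mitochondrial genome took 27.0% and 30.4% of the counts in the sham libraries WS and KS and 19.4% and 20.6% in WD and KD, so the scaling between libraries matters, and levels are given here as CPM (reads divided by the scaled library size) after TMM scaling. Of 6 muscle fibre markers, only 2 were in the table, Mylpf and Myh1. They were among the abundant genes of every library, at a summed level of 33773, 20944, 31676 and 23101 CPM in WS, WD, KS and KD, and both fell after denervation. All 6 macrophage markers rose, at summed levels of 15.6, 40.9, 15.7 and 39.1 CPM. All 5 endothelial markers fell, from 414 to 194 CPM in WT and from 335 to 185 CPM in Fgf21KO. Of 5 markers of fibro-adipogenic progenitors 4 fell and Pdgfra was not called. Summed over all 5, their level went from 585 to 381 CPM in WT and from 573 to 395 CPM in Fgf21KO. The 2 Schwann cell markers in the table summed to 4.9 to 6.7 CPM and neither was called, and the listed satellite cell markers were not analysed here. In whole-muscle RNA, fewer cells of a type and less RNA per cell cannot be told apart. For fibro-adipogenic progenitors, the study reports that more cells were isolated from denervated than from sham limb muscles, a count made outside these libraries. The part of these shifts in cell markers in the values below was not tested.

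Denervation was the comparison in which the initiation factor genes moved. Over both genotypes, with the WT and the Fgf21KO pair as the 2 samples of each surgery, 28 of the 56 genes tested rose and 9 fell (edgeR quasi-likelihood test, Benjamini-Hochberg adjusted p below 0.05). Among all 13084 genes tested, 26.4% rose and 26.6% fell. The median log2 ratio of denervated to sham was 0.19 in WT and 0.14 in Fgf21KO, against 0.01 in both genotypes over all genes tested. When libraries were scaled by total counts alone, the median of all genes moved to 0.29 in WT and 0.36 in Fgf21KO, and 41 initiation factor genes were called higher and 4 lower. On that scale 46.7% of all genes were called higher and 12.8% lower, and the median of the initiation factor genes lay 0.19 above the median of all genes in WT and 0.13 above it in Fgf21KO, against 0.18 and 0.13 with TMM.

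The changes were small for most genes, as they were over all genes tested. The median absolute log2 ratio was 0.41 in WT and 0.33 in Fgf21KO, against 0.40 and 0.39 over all genes tested. A called change of at least 2-fold was seen in 3 of the 56 genes, Eif4a1 and its pseudogene Eif4a-ps4 upwards and Eif4ebp2 downwards, while 13.0% of all genes tested had one. In WD vs. WS, 11 of the 56 genes (19.6%) were at least 1.5-fold higher, close to the 17.2% of all genes tested. At least 1.5-fold lower were 4 (7.14%), against 17.6% of all genes. The 4 were Eif4ebp2, Eif1, Eif5a2 and the pseudogene Eif1-ps1. At 2-fold, 2 genes were higher (3.57%, against 7.25% of all genes), Eif4a1 and Eif4a-ps4. Lower by 2-fold were 2 (3.57%, against 7.52%), Eif4ebp2 and Eif1-ps1. In KD vs. KS, 10 (17.9%) were at least 1.5-fold higher, again close to all genes (17.2%). At least 1.5-fold lower were 5 (8.93%, against 16.7%). At 2-fold, 2 were higher (3.57%, against 7.52%), Eif4a1 and Eif4a-ps4, and 2 were lower (3.57%, against 6.07%), Eif4ebp2 and Eif1. The 5 also included Eif4e, Eif4e3 and Eif1-ps1. The ratio had the same sign in both genotypes in 51 of the 56 genes, above 0 in 34 and below 0 in 17, against 82.9% of all genes tested.

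**Figure D1:**
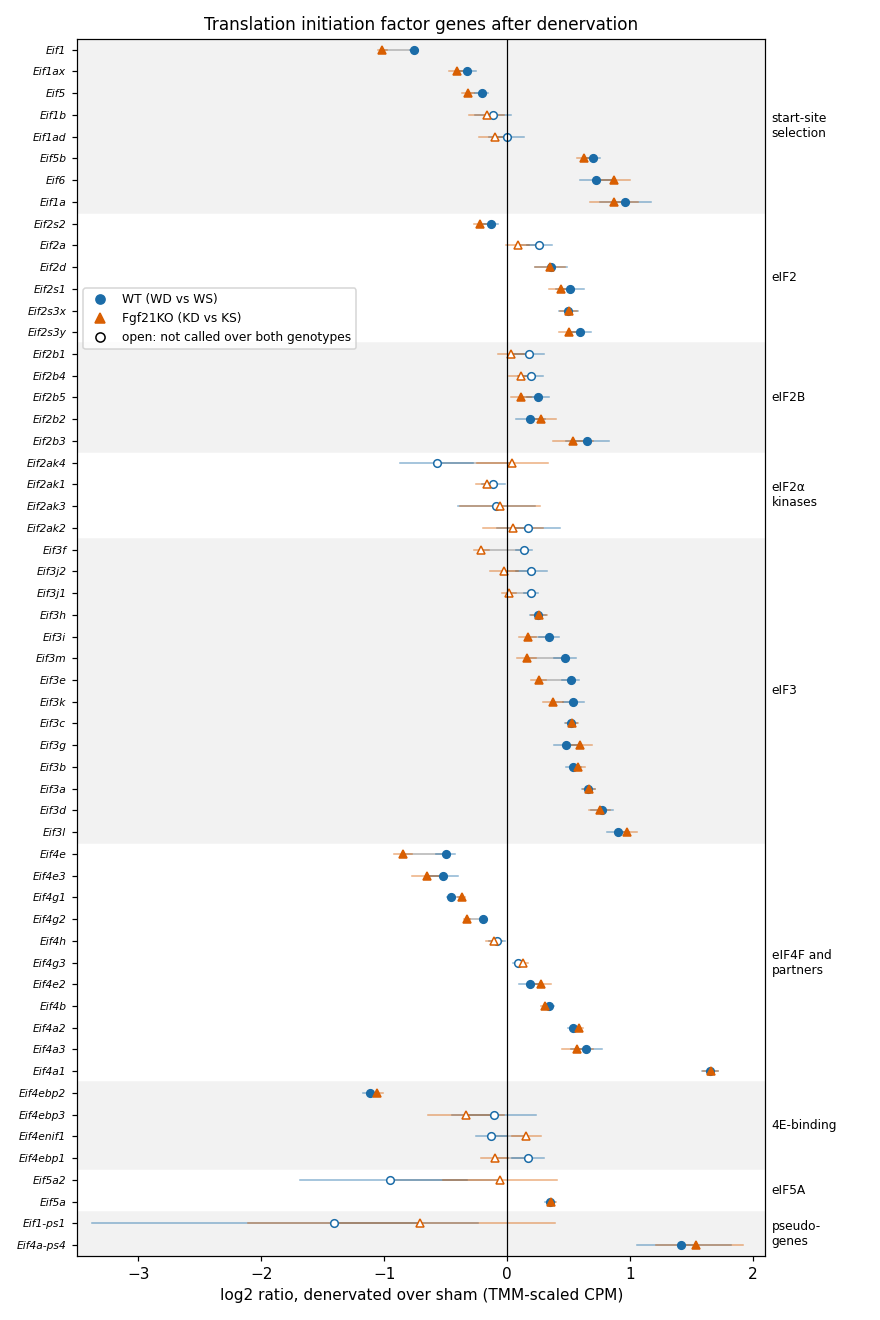
The log2 ratio of denervated to sham TA muscle (x axis, TMM-scaled CPM) is shown for the 56 genes tested, grouped by role, with circles for WT (WD vs. WS), triangles for Fgf21KO (KD vs. KS), filled symbols for the genes called over both genotypes and bars for the 95% counting interval of each ratio. Eif4a1 lies farthest to the right at 1.65 in both genotypes, the called eIF3 genes all lie to the right of 0, and Eif4ebp2 lies at -1.12 and -1.06.

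The eIF3 complex was the group with the largest share of genes that rose. Of its 14 genes 11 rose and none fell, and the genes not called were Eif3f, Eif3j1 and Eif3j2, which with total counts alone were also called higher (14 of 14). The median log2 ratio of the group was 0.50 in WT and 0.31 in Fgf21KO. Summed over the group, the levels in WS, WD, KS and KD were 1507, 2080, 1574 and 2027 CPM, so both denervated libraries were above both sham libraries.

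Eif3l, a subunit of the complex that is not part of its yeast counterpart, had the largest rise in the group. It had 1443, 3776, 1761 and 3601 reads in WS, WD, KS and KD, or 62.0, 115.8, 59.3 and 116.5 CPM. The 2 denervated values were close to each other and did not overlap the sham values, and the denervation effect was 0.94 ± 0.07 (SE) on the log2 scale (adjusted p = 1.58e-09, edgeR). Eif3d, the subunit that can itself bind the cap of some mRNAs, followed at 60.5, 103.1, 57.8 and 97.3 CPM, an effect of 0.76 ± 0.07 (adjusted p = 3.45e-08, edgeR). Eif3a, the largest scaffold subunit, was at 195 and 183 CPM in the sham libraries and at 308 and 289 CPM in the denervated libraries, a log2 ratio of 0.66 in both genotypes. The other core scaffold subunits, Eif3b and Eif3c, had ratios of 0.54 and 0.52 in WT and 0.57 and 0.53 in Fgf21KO.

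The smaller effects within eIF3 lay in Eif3h at 0.25 ± 0.07, Eif3i at 0.25 ± 0.07, Eif3m at 0.31 ± 0.08 and Eif3e at 0.38 ± 0.08, all called. For Eif3i the call was lost in DESeq2's Wald test (adjusted p = 0.062). Eif3e and Eif3m had lower ratios in Fgf21KO (0.25 and 0.16) than in WT (0.52 and 0.47). The subunits Eif3h, Eif3c, Eif3a and Eif3d differed by at most 0.02 between the genotypes.

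Eif3f, a subunit known as a target of the atrophy ubiquitin ligase MAFbx, had the widest gap of the group between the genotypes. Its reads in WS, WD, KS and KD were 3309, 5105, 4691 and 4213, or 142, 157, 158 and 136 CPM. The ratio was above 0 in WT (0.14, 95% counting interval 0.08 to 0.20) and below 0 in Fgf21KO (-0.21, -0.27 to -0.15), and over both genotypes the gene was not called (adjusted p = 0.720, edgeR). With total counts alone it was called higher, at 0.28. Eif3j1 and Eif3j2, copies of the loosely attached j subunit, were at 0.19 in WT for both and at 0.02 and -0.02 in Fgf21KO. Of the 100-base windows of Eif3j2, 84.0% are identical to a stretch of Eif3j1, so the split of reads between them is uncertain, and 19.0% of Eif3j1's exonic bases overlap exons of Spg11 on the opposite strand.

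Among the subunits, levels per length ranged from 12.2 CPM per kb (Eif3d) to 75.7 CPM per kb (Eif3h) in WS, a 6.22-fold range. In WD the range was 4.33-fold, in KS 6.37-fold and in KD 4.52-fold. Length here is the union of annotated exons, so these levels are approximate for genes with many rare transcripts.

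**Figure D2:**
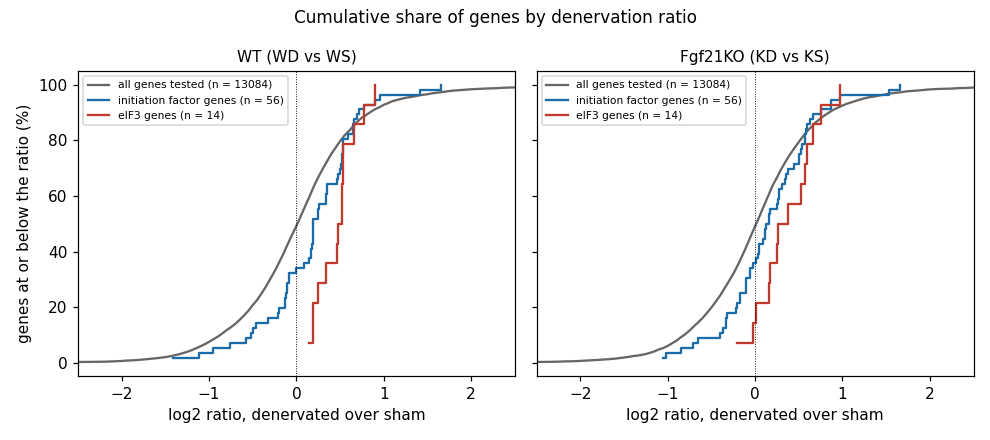
The cumulative share of genes (y axis, %) is plotted against the log2 ratio of denervated to sham in WT and in Fgf21KO, for all 13084 genes tested (grey), the 56 initiation factor genes (blue) and the 14 eIF3 genes (red). The curve of all genes crosses 0 near its middle, and all 14 eIF3 genes lie above 0 in WT and 12 of 14 in Fgf21KO.

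Within eIF4F and its helicase partners 5 of 11 genes rose, 4 fell and 2 were not called, while with total counts alone 7 were called higher and 2 lower. The summed level of the group went from 3195 to 3300 CPM in WT and from 3279 to 3405 CPM in Fgf21KO. All 3 eIF4A helicase genes rose. Of the cap-binding genes, Eif4e and Eif4e3 fell and Eif4e2 rose, and of the scaffold genes, Eif4g1 and Eif4g2 fell and Eif4g3 was not called.

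Eif4a1, the eIF4A helicase of most growing cells, had the largest change of all the initiation factor genes. It had 2482, 10924, 3011 and 9868 reads in WS, WD, KS and KD, or 107, 335, 101 and 319 CPM. That is a 3.14-fold rise in WT and a 3.15-fold rise in Fgf21KO (log2 effect 1.65 ± 0.07, adjusted p = 1.34e-13, edgeR). Its 2 sham libraries lay close together and so did its 2 denervated libraries, with a difference between the genotypes' log2 ratios of 0.00 (95% counting interval -0.08 to 0.09). The pseudogene Eif4a-ps4 followed it, with 74, 280, 89 and 273 reads (ratios 1.41 in WT and 1.54 in Fgf21KO, called higher). Of the pseudogene's 100-base windows, 91.1% are identical to a stretch of Eif4a1, so its reads may be reads of Eif4a1.

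Eif4a2, the paralogue that is more abundant in adult muscle, rose less. Its reads were 8593, 17408, 14414 and 22525 in WS, WD, KS and KD, or 369, 534, 485 and 728 CPM (denervation effect 0.56 ± 0.07, adjusted p = 1.44e-06, edgeR). Eif4a1 thus rose from 22.4% to 38.6% of the reads of the pair in WT and from 17.3% to 30.5% in Fgf21KO. Per length, Eif4a1 was at 0.36 and 0.77 of the level of Eif4a2 in WS and WD, and at 0.26 and 0.54 of it in KS and KD. No 100-base window of one is identical to the other. Eif4a3, the helicase of the exon junction complex, rose by 0.64 in WT and 0.57 in Fgf21KO on the log2 scale.

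Eif4e, the cap-binding protein, fell. It had 2767, 2738, 4251 and 2460 reads, or 119, 84.0, 143 and 79.6 CPM in WS, WD, KS and KD. The denervated libraries lay close together, below both sham libraries, and the effect was -0.68 ± 0.08 on the log2 scale (adjusted p = 7.35e-07, edgeR). Its ratio was -0.50 in WT and -0.85 in Fgf21KO, a difference of -0.34 (95% counting interval -0.45 to -0.24). Eif4e3, a cap-binding paralogue, fell with it (-0.52 in WT and -0.66 in Fgf21KO). Eif4e2, which encodes the homologue 4EHP that competes for the cap, rose by 0.23 ± 0.08 (adjusted p = 0.0150, edgeR), a call lost in DESeq2's Wald test (adjusted p = 0.128).

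Eif4g1, the main scaffold of eIF4F, was at 919, 668, 850 and 657 CPM in WS, WD, KS and KD and fell (effect -0.42 ± 0.07, adjusted p = 7.21e-05, edgeR), but with total counts alone the value was -0.10 and not called. Eif4g2, a related scaffold that works without eIF4E, fell by 0.26 on the log2 scale with TMM and was at 0.05 with total counts alone. Eif4g3 was at 0.09 in WT and 0.13 in Fgf21KO and was not called, though with total counts alone it was called higher (0.43). Per length, Eif4g1 was at 5.50 times the level of Eif4g3 in WS and 3.75 times in WD, and at 5.43 and 3.85 times in KS and KD. Of the helicase cofactors, Eif4b rose (0.34 in WT, 0.31 in Fgf21KO) and Eif4h was not called (-0.08 and -0.11), while with total counts alone it was called higher (0.22).

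**Figure D3:**
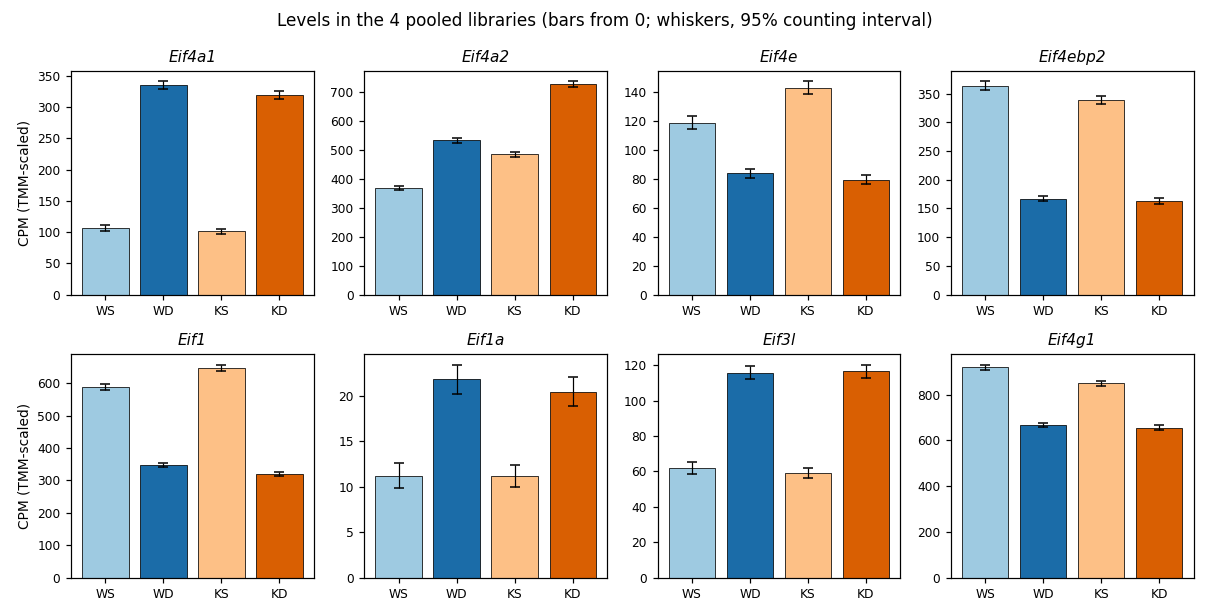
Bars from 0 show the level (y axis, TMM-scaled CPM) of 8 genes in the 4 pooled libraries WS, WD, KS and KD, and whiskers show an approximate 95% counting interval, which does not include variation between animals. Eif4a1 stands near 100 CPM in both sham libraries and above 300 in both denervated libraries, Eif4ebp2 moves the other way, and Eif4a2 is higher in Fgf21KO than in WT at either surgery.

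Of the eIF4E-binding proteins, Eif4ebp2 alone was called with TMM, while with total counts alone Eif4ebp1 (0.35) and Eif4enif1 (0.33) were also called, both higher. It had 8457, 5450, 10058 and 5034 reads in WS, WD, KS and KD, or 363, 167, 339 and 163 CPM. That is a 2.17-fold fall in WT and a 2.08-fold fall in Fgf21KO (effect -1.09 ± 0.07, adjusted p = 8.24e-11, edgeR), and with total counts alone the effect was -0.77 and still called. Per length, Eif4ebp2 was at 3.17 times the level of Eif4e in WS and 2.07 times in WD, and at 2.46 and 2.13 times in KS and KD.

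Eif4ebp1, the 4E-BP usually studied as a readout of mTOR, was at 34.6, 38.8, 46.9 and 43.6 CPM in WS, WD, KS and KD. Its ratio was 0.17 in WT and -0.10 in Fgf21KO, with no call (adjusted p = 0.812, edgeR). Relative to Eif4ebp2 its level per length was 0.25 in WS and 0.61 in WD, and 0.36 in KS and 0.71 in KD. Eif4ebp3 had 128, 166, 194 and 160 reads (ratios -0.11 and -0.33, not called), and 67.3% of its exonic bases overlap another annotated gene on the same strand, so its counts are uncertain. Eif4enif1, the protein that carries eIF4E into the nucleus, was at 40.7, 37.2, 36.3 and 40.4 CPM. Its ratio was -0.13 in WT and 0.15 in Fgf21KO (adjusted p = 0.912, edgeR).

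The eIF2 alpha kinases were not called in either direction with TMM. Eif2ak1, the heme-regulated kinase HRI, was the most abundant, at 71.0, 65.6, 75.8 and 67.4 CPM in WS, WD, KS and KD. Its ratio was -0.11 in WT and -0.17 in Fgf21KO, while with total counts alone the effect was 0.18 and called, so its direction depends on the scaling. Eif2ak2, the double-stranded RNA-dependent kinase PKR, was at 8.94, 10.1, 9.09 and 9.38 CPM. Eif2ak3, the endoplasmic reticulum kinase PERK, was at 6.53, 6.13, 5.35 and 5.14 CPM. These 2 genes had counting intervals that spanned 0 in both genotypes, though with total counts alone Eif2ak2 was called higher (0.43, adjusted p = 0.0236, edgeR). Eif2ak4, the amino acid sensor GCN2, had 197, 185, 197 and 211 reads, with a ratio of -0.57 in WT (95% counting interval -0.87 to -0.28) and 0.04 in Fgf21KO (-0.25 to 0.33). The kinases and the eIF4E-binding proteins together had 1 called gene of 8, which was lower, and with total counts alone 5 of 8, of which 4 were higher. The 46 genes left after the pseudogenes, kinases and binding proteins were set aside had 27 that rose and 8 that fell, and with total counts alone 36 and 3. Among all genes tested, 26.4% rose and 26.6% fell with TMM, and 46.7% and 12.8% with total counts alone. The 4 of 8 kinase and binding protein genes called higher with total counts alone thus lay near the share of all genes.

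Of the 6 genes of eIF2 and of tRNA delivery 4 rose and 1 fell, against 5 and 0 with total counts alone. The alpha subunit gene Eif2s1, whose product the kinases phosphorylate, was at 40.1, 57.3, 42.5 and 57.7 CPM and rose (0.51 in WT, 0.44 in Fgf21KO). The gamma subunit is encoded by an X-linked and a Y-linked gene, and both rose, Eif2s3x by 0.50 in each genotype and Eif2s3y by 0.59 and 0.50. The X-linked copy held 59.5%, 58.0%, 59.8% and 59.7% of the reads of the pair in WS, WD, KS and KD, so the share barely moved. The beta subunit gene Eif2s2 was the exception. It was at 215, 196, 233 and 200 CPM and was called lower (-0.18 ± 0.07, adjusted p = 0.0408, edgeR), but it was not called in DESeq2's Wald test (adjusted p = 0.10) and its sign turned with total counts alone (0.14). Eif2d rose by 0.35 ± 0.09, and Eif2a, which can deliver initiator tRNA without eIF2, was at 0.26 and 0.09 and not called.

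In eIF2B, the exchange factor for eIF2, 3 of 5 subunit genes rose. Eif2b3, the gamma subunit in its catalytic part, was at 17.1, 27.0, 18.0 and 26.1 CPM and had the largest effect, 0.59 ± 0.10 (adjusted p = 6.79e-05, edgeR). Eif2b2 and Eif2b5 rose by 0.23 and 0.18 (adjusted p = 0.0243 and 0.0498, edgeR), and both calls were lost in DESeq2's Wald test (adjusted p = 0.201 and 0.248), that of Eif2b5 also with DESeq2 size factors (0.0563). The regulatory subunits Eif2b1 and Eif2b4 were not called with TMM, but with total counts alone both were called higher (0.42 and 0.47), as were all 5 genes.

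Among the factors for start-site selection and subunit joining, 3 of 8 rose and 3 fell, while with total counts alone 4 were called higher and 1 lower. Eif1, the gatekeeper of start-codon choice, had 13661, 11320, 19239 and 9893 reads in WS, WD, KS and KD, or 587, 347, 648 and 320 CPM. Both denervated values lay below both sham values, and the effect was -0.89 ± 0.08 (adjusted p = 6.47e-09, edgeR). Per length, Eif1 was the most abundant initiation factor gene that is no pseudogene in the sham libraries, at 280 CPM per kb in WS and 309 in KS, and in the denervated libraries Eif5a took that place at 193 and 194 CPM per kb. Its paralogue Eif1b was not called (-0.11 and -0.17).

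The eIF1A genes moved in opposite directions. Eif1a had 261, 712, 332 and 632 reads, a 1.94-fold rise in WT and a 1.82-fold rise in Fgf21KO (effect 0.91 ± 0.12, adjusted p = 1.32e-06, edgeR). The X-linked Eif1ax, which was more abundant, was at 124, 98.7, 130 and 98.0 CPM and fell (-0.37 ± 0.07, adjusted p = 0.000225, edgeR), although with total counts alone it was at -0.05 and not called. Eif1a thus went from 8.30% to 18.1% of the reads of the pair in WT and from 7.92% to 17.3% in Fgf21KO. Eif5b, the GTPase of subunit joining, rose (0.69 and 0.62), with 16.8% of its exonic bases overlapping Rev1 on the opposite strand. Eif6, which keeps the large subunit from joining too early, was at 28.7, 47.3, 27.2 and 49.8 CPM and rose by 0.80 ± 0.09 (adjusted p = 1.76e-07, edgeR). Eif5, the GTPase-activating protein of eIF2, fell with TMM (-0.26 ± 0.07, adjusted p = 0.00384, edgeR) and was at 0.06 with total counts alone.

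Eif5a, the hypusine-carrying factor that helps peptide bonds form at difficult residues, rose by 0.35 ± 0.07 (adjusted p = 0.000267, edgeR), with 361, 459, 360 and 462 CPM. Its paralogue Eif5a2 had 47, 33, 81 and 81 reads and was not called. In every library Eif5a2 held less than 1% of the reads of the pair, since Eif5a held 99.2% to 99.8%.

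Few of these genes passed a threshold between the genotypes, and with 1 library per group smaller differences could not be judged. Between KS and WS none of the 56 genes differed by 1.5-fold, against 7.62% of all genes tested, and between KD and WD 2 did (Eif5a2 and the pseudogene Eif1-ps1, both at few reads), against 5.92%. In the fit over both surgeries 1 gene was called, Eif4a2, against 0.573% of all genes tested. It was 1.31-fold higher in KS than in WS and 1.36-fold higher in KD than in WD (genotype effect 0.42 ± 0.07, adjusted p = 0.00393, edgeR), and the call held in each of the 5 alternatives of that fit, with adjusted p from 4.96e-05 to 0.0245. The next adjusted p among the initiation factor genes was 0.230. That was Eif4ebp1, with log2 ratios of 0.44 between KS and WS and 0.17 between KD and WD. Because sham and denervated muscles may have come from the same mice, the genotype p-values may hold no variation between animals. The alternatives used the same 4 libraries. Strain differences between WT and Fgf21KO and the deletion cannot be told apart here.

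**Figure D4:**
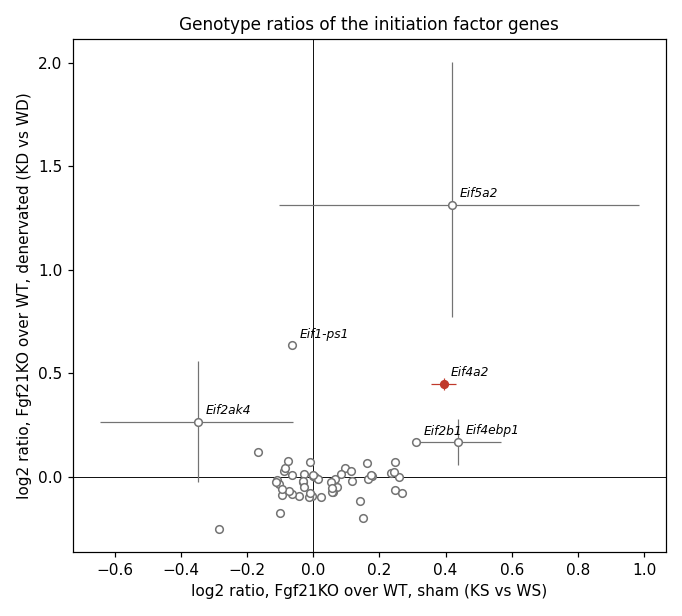
The log2 ratio of Fgf21KO to WT in sham muscle (x axis, KS vs. WS) is plotted against that in denervated muscle (y axis, KD vs. WD) for the 56 genes, with 95% counting intervals drawn for Eif4a2, Eif5a2, Eif4ebp1 and Eif2ak4. Eif4a2 (filled) is the called gene at 0.39 and 0.45, and Eif5a2 stands at 0.42 and 1.31 with a wide interval.

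Whether the genotypes differed in the size of the denervation response could not be tested, because with 1 library per group that difference is the residual of the fit. As a description, the 95% counting interval of the difference between the genotypes' log2 ratios lay below 0 in 15 of the 56 genes, above 0 in 5 and spanned 0 in 36. An interval that left out 0 was thus seen in 35.7% of these genes and in 29.3% of all genes tested, and such intervals hold no variation between animals. In eIF3 it lay below 0 in 7 of the 14 genes and above 0 in none. The share of all genes with an interval on each side of 0 was not counted, so these splits by direction have no background. The median difference, Fgf21KO minus WT, was -0.06 over the 56 genes and -0.01 over all genes tested.

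Lists of genes that work with the initiation factors were read in the same fit, with TMM only. With total counts alone the effects of several initiation factor genes changed sign or lost their call. The listed genes were not read on that scale, so their smaller rises and falls may depend on the scaling. Of 61 listed genes tested, 31 rose, 12 fell and 18 were not called, against the 26.4% and 26.6% of all genes. Other initiation and recycling factors rose in 8 of 12 cases and fell in 2. The cap-binding protein of nuclear mRNA Ncbp1 (0.98 in WT, 1.02 in Fgf21KO) and its partner in the first round of translation Ctif (0.92 and 0.87) had the largest ratios, and the helicase Ddx3x (-0.52 and -0.66) had the lowest. Among poly(A)-binding proteins and partners 1 of 8 rose and 3 fell. Pdcd4, an inhibitor of eIF4A, rose (0.83 and 0.69), Paip2 was at 0.24 and 0.05 and not called, and Pabpc4 (-0.51 and -0.85) and Paip2b (-0.43 and -0.38) fell.

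In a list of kinases upstream of eIF4E and the 4E-BPs, their regulators and the ribosomal protein Rps6, a substrate of S6 kinase, 9 of 15 rose and 3 fell. Rps6 was 1 of the 9 (0.78 in WT and 0.58 in Fgf21KO). Mknk2, a kinase that phosphorylates eIF4E, was at 338, 848, 351 and 1002 CPM in WS, WD, KS and KD (ratios 1.33 and 1.51). Mtor, the kinase that phosphorylates the 4E-BPs, followed at 0.69 and 0.93. The mTOR inhibitors went both ways: Tsc1 (-0.77 and -0.55) and Ddit4 (-0.64 and -0.48) fell, while Tsc2 (0.23 and 0.36) and Deptor (0.47 and 0.61) rose. Phosphorylation itself was not measured.

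Of 14 tested genes of the integrated stress response, which include both targets downstream of phosphorylated eIF2 alpha and regulators of that phosphorylation such as Impact, Gcn1, Dnajc3 and Nck1, 6 rose and 2 fell. The stress factor Atf3 (2.85 and 2.23) and asparagine synthetase Asns (2.39 and 2.45) rose, while Atf4, the central factor of the response, fell (-0.63 and -0.88) together with Chac1 (-1.33 and -1.48). Chac1 was also the 1 listed gene called between the genotypes, lower in Fgf21KO (-0.31 in sham and -0.46 in denervated muscle, adjusted p = 0.0351, edgeR). Atf4 is controlled largely at translation, which mRNA counts do not show. Of 10 elongation and termination genes 7 rose and 1 fell. Eef1a1, the elongation factor isoform that adult muscle largely replaces with Eef1a2, was at 303, 2199, 320 and 2221 CPM (ratios 2.86 and 2.80), and Eef1b2, its exchange factor, followed at 1.13 and 1.02. Eef2k, the kinase that inhibits elongation, fell (-0.43 and -0.29), and Eefsec was at 0.09 in both genotypes and not called. Of the 2 enzymes that make hypusine on eIF5A, Dohh fell (-0.35 and -0.20) and Dhps was at -0.02 and 0.06 and not called.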

How the data were processed

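Whole-number gene counts were deposited by the authors for 4 libraries prepared with a stranded mRNA kit. The submitters' processing notes name FastQC and GRCm39, while the aligner, the counter and its strand setting are not given in the sources used here. A second table deposited by the authors holds log2 values, and all 55300 of them equal log2(count × 1 factor per library + 1) within 0.0001, so it served as an alternative only. Every gene listed had at least 1 read in each library, so genes without reads somewhere were not analysed here. The fibre markers Acta1, Ckm, Myh4 and Tnnt3 and the elongation factor gene Eef1a2 were also not among the genes listed. Why they are missing was not tested, and shares of counts refer to the listed genes only.

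Counts were scaled by TMM in edgeR 4.0.16 (R 4.3.3), the 13084 genes that averaged 10 or more reads per library were kept, and an additive model of genotype and surgery was fitted with the quasi-likelihood test on all 4 libraries, which left 1 residual degree of freedom. The p-values measure only the disagreement between the genotypes, moderated over genes. The steps were also run on simulated data with far fewer changed genes than here and no genotype difference, which does not check the calls made here. With 1 library per group, pairwise comparisons are log2 ratios of CPM (prior count 2) with exact 95% intervals that cover counting error only. A count of 3 corresponds to 0.092 to 0.129 CPM. The lengths, overlaps and shared windows came from GENCODE M21 (GRCm38), in which all 58 symbols matched, and promoters from RefSeq.

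Genes were named as follows: all kinases and binding proteins, paralogue sets, and in each role group and list the 2 highest and the 2 lowest by mean denervation ratio. Further genes were named after their values were seen. One listed gene that the rule would name is not reported here. The genes, roles and lists were chosen with earlier results of these data known. Alternatives were DESeq2 size factors, total counts alone, dropping the filter or raising it to 50, prior counts of 0.125 and 5, the second table, an added 2-fold criterion, exact tests at an assumed variation of 0.1 or 0.4, and DESeq2 1.42.0.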

Additional observations from a re-analysis of the deposited data

Results flagged for a closer look

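The denervation ratio of 2 genes had opposite signs in the genotypes with 95% counting intervals on opposite sides of 0. For Eif3f, the log2 ratio in Fgf21KO minus that in WT was -0.35, from 0.14 in WT and -0.21 in Fgf21KO. For Eif4enif1, it was 0.28, from -0.13 in WT and 0.15 in Fgf21KO. With 1 pooled library per group, neither difference was tested.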

How the results depend on the processing

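No paired analysis was possible because a group holds a single pool of muscles, and leaving out a library leaves no residual degrees of freedom, so it was not run. Asking for 2-fold as well left 2 genes called higher (28 without) and 1 lower (9 without). With total counts alone, 4 were called lower, and the median ratio was 0.47 in WT and 0.50 in Fgf21KO. Among the genes called with TMM or with total counts alone, the effect changed sign in Eif2ak1 (0.18), Eif2s2 (0.14), Eif3f (0.28), Eif4g2 (0.055), Eif1ad (0.27), Eif4h (0.22) and Eif5 (0.055). On that scale 24 genes were at least 1.5-fold higher in WD vs. WS, 5 at least 2-fold higher and 1 at least 2-fold lower, and in KD vs. KS 25, 7 and 0, with 2 at least 1.5-fold lower. The median ratio of all genes tested also moved up there, to 0.29 in WT and 0.36 in Fgf21KO. The share of all genes past these folds on that scale was not counted, so these counts have no background. In exact tests at an assumed variation of 0.4, 0 genes passed 1.5-fold or 2-fold in either direction after denervation in either genotype, and 0 did upwards in KD vs. WD. At least 2-fold lower in WD vs. WS was 1 gene, not 2, with the filter raised to 50, with the second table and at an assumed variation of 0.1. At least 1.5-fold higher in KD vs. WD was 1 gene, not 2, under those 3 settings and with a prior count of 5, and the 1 gene at least 2-fold higher there was 0 with the second table. With no filter 1 gene, and not 0, was at least 1.5-fold lower in KS vs. WS. Of the other values of counts and medians, 163 kept their size, and DESeq2's Wald test lost 5 calls of denervation. The causes were not tested beyond what each setting's construction shows. Among the genes tested, the counting error of the difference between the genotypes' ratios was largest in Eif1-ps1 (SE 0.91), Eif5a2 (0.40), Eif4a-ps4 (0.26) and Eif4ebp3 (0.23).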
